A study of Mus musculus with 6 samples.

Results

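The Hox cluster genes are the homeobox genes of the HoxA, HoxB, HoxC and HoxD clusters. They were taken here as every probe of the array named Hoxa, Hoxb, Hoxc or Hoxd followed by a number, across 3 gates of mouse thymic epithelial cells that differ in a Meis1 reporter. The rule found 38 genes with 50 probes, of 28032 genes and 41174 probes in all, and Hoxc11 was not analysed here. A single probe read 26 of the genes, and 12 genes had 2 probes. The cells came from 4-week-old C57BL/6 mice carrying Tg(Meis1-EGFP)FO156Gsat/Mmcd, a bacterial artificial chromosome in which Meis1 regulatory sequence drives EGFP, and all 3 gates share this transgene. They were sorted as lacking CD45, the common leukocyte antigen, and carrying the epithelial adhesion molecule EpCAM. Meis1-high cells were bright for EGFP and small by forward scatter. Meis1-low cells had intermediate EGFP and were large, and Meis1-negative cells lacked EGFP and were small. The gates therefore differ in EGFP, which reports the transgene and not the Meis1 protein, and between Meis1-low and the other gates also in cell size, so that these cannot be told apart. There were 2 pools of 6 mice per gate and hence 6 one-colour arrays, and replicate 1 of all gates lay on one slide and replicate 2 on the other.

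Hox proteins are transcription factors that give cells their position along the body axis, and the genes of a cluster lie in the order in which they are used from head to tail. Paralogue groups run from 1, the most anterior, to 13, the most posterior, and the clusters hold different subsets of them. Hox proteins bind DNA together with TALE homeodomain partners of the Pbx and Meis families, Meis1 among them. The thymus arises from the third pharyngeal pouch, where Hoxa3 is required: mouse embryos without it form neither thymus nor parathyroid glands.

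Across 18221 genes, none passed the test between gates (limma, adjusted p under 0.05, 0% in each comparison), and none of the 20 Hox genes tested did. By their values, Hoxa2, Hoxa3 and Hoxa4, which neighbour each other in HoxA, had their highest levels on both Meis1-high arrays. So did Hoxc4 and the tested probe of Hoxb2. Hoxa11, Hoxb9, Hoxc10 and Hoxd1 had theirs on both Meis1-low arrays. Shares of all genes whose arrays did not overlap are given below for each pair of gates. Within HoxD, 1 of 9 genes was measured well enough to be tested.

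A level here is the log2 signal minus that at the 75th percentile of the same array, so that 0 stands for the signal at that percentile, and levels of different probes are not comparable. A probe counted as well above background where the scanner software marked it so. On a single array, 11 to 26 of the 50 Hox probes were well above background (22.0% to 52.0%), against 52.6% to 69.0% of all probes. The lowest counts came from Meis1-high replicate 1 with 15 and Meis1-negative replicate 1 with 11. These are the arrays with the lowest signal at the 75th percentile, 73.3 and 114.2, against 136.5 to 165.2 on the other arrays, and with the largest share of spots given a surrogate value by the software, 26.9% and 28.2%, against 15.5% to 21.3%. At least 1 array showed 27 of the 38 genes well above background. The 11 genes that no array showed included Hoxa10, Hoxb1, Hoxb4, Hoxb5, Hoxc12, Hoxd3, Hoxd8, Hoxd10, Hoxd11 and Hoxd12, and transcripts of the 11 were thus not detectable at this signal.

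The test took genes that 1 gate or more showed well above background on both of its arrays, which were 20 of the 38 Hox genes (52.6%), against 65.0% of all genes on the array. The rule was met in Meis1-high by 13 Hox genes, in Meis1-low by 18 and in Meis1-negative by 8. By cluster, 7 of 11 HoxA genes, 6 of 10 HoxB genes, 6 of 8 HoxC genes and 1 of 9 HoxD genes were tested. Since a gene could pass through the gate in which it was high, the counts and medians over the 20 genes below describe them only. On all 6 arrays, 1 probe each of Hoxa3, Hoxa7, Hoxb6, Hoxb9, Hoxc4 and Hoxc5 was well above background.

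**Figure D1:**
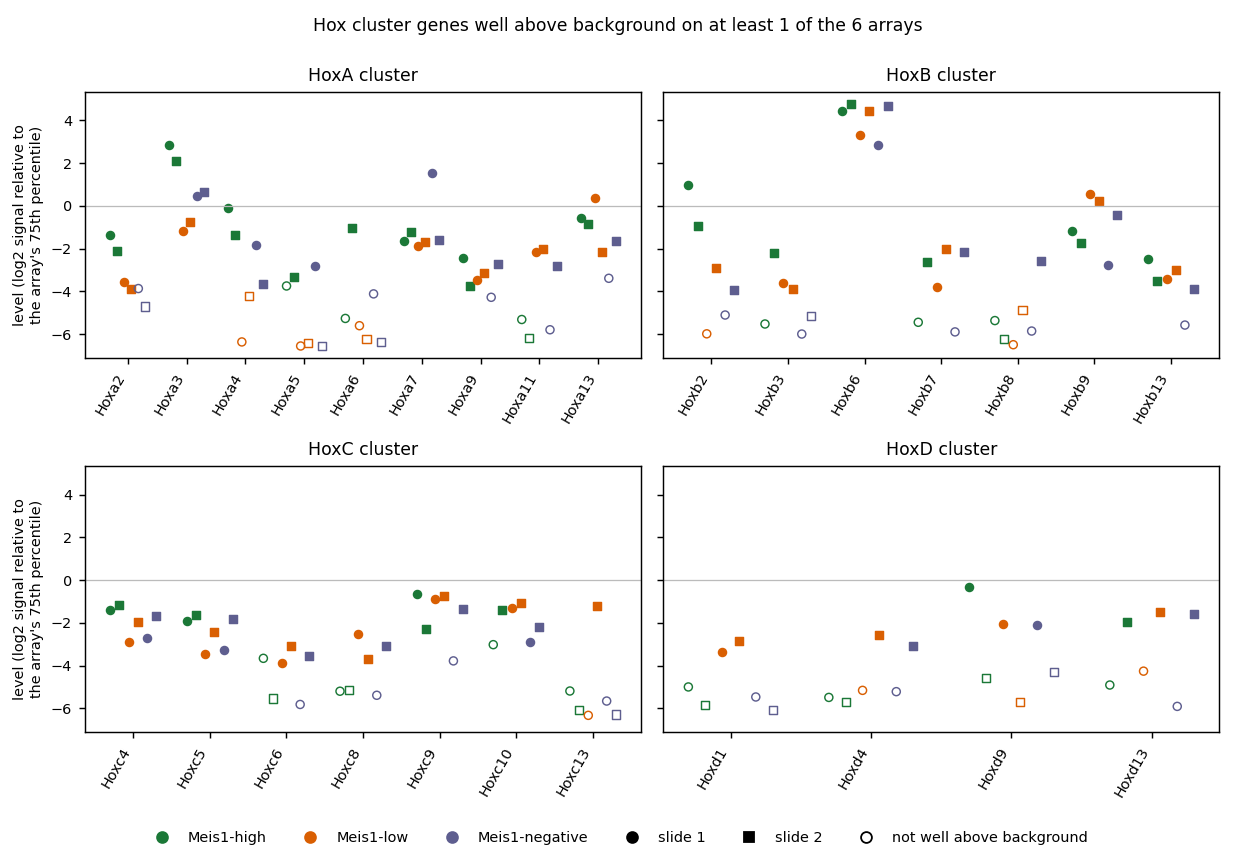
Levels on the 6 arrays of the 27 Hox cluster genes that at least 1 array showed well above background, in log2 units relative to the array's 75th percentile, by cluster and paralogue group, with 1 probe per gene. Colours give the gate, circles slide 1, squares slide 2, and open symbols mark a probe not well above background; 20 genes passed the filter, 1 of them in the HoxD cluster.

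All Hox probes are 60 bases long. The Hoxa9 probe shares a run of 22 bases with 1 Hoxb3 probe, the longest run that a Hox probe shares with another gene's probe. Whether it also reads other transcripts was not tested. The Hoxa9 probe was well above background on 5 of 6 arrays, missing Meis1-negative replicate 1. Levels of Hoxa9, a gene of posterior trunk and of blood progenitors, were -2.45 and -3.77 in Meis1-high cells, -3.45 and -3.16 in Meis1-low cells, and -4.28 and -2.70 in Meis1-negative cells. The 3 gates overlapped.

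Probe strand sets 1 probe apart. The 14 HoxA probes lie on the minus strand, and 14 of 15 HoxB probes, all 9 HoxC probes and all 12 HoxD probes lie on the plus strand. The exception is the probe that the array design names Hoxb2 and that carries accession AK036636, at chr11:96211860-96211919 on mm9, on the minus strand.
Hoxb2 (AK036636): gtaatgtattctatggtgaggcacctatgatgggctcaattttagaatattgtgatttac
It lies 3262 bases from the other Hoxb2 probe, which was designed on the RefSeq transcript NM_134032. The antisense transcript Hoxb3os neighbours Hoxb2 in the RefSeq table, and whether the probe reads it was not tested. The labels do not state that the labelling kept the strand, so transcripts of either strand cannot be told apart here.

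Hoxa3, a gene of paralogue group 3, was highest in Meis1-high on both slides. Its tested probe (chromosome 6, 52119744 to 52119803 on mm9) had levels of 2.87 and 2.09 in Meis1-high cells, -1.16 and -0.74 in Meis1-low cells, and 0.48 and 0.64 in Meis1-negative cells. The arrays of the 3 gates did not overlap, with Meis1-high on top and Meis1-low lowest. The log2 difference was 3.43 ± 0.62 (SE, n = 2 arrays each) for Meis1-high minus Meis1-low, with values of 4.03 and 2.83 on the separate slides. It did not pass the test across all genes (limma, adjusted p = 0.25). Against Meis1-negative the difference was 1.92 ± 0.62 for Meis1-high (limma, adjusted p = 0.377), 2.39 and 1.45 by slide. Meis1-low minus Meis1-negative was -1.51 ± 0.62 (limma, adjusted p = 0.608), -1.65 and -1.38 by slide, and -0.85 after the normexp background correction. The other Hoxa3 probe, 666 bases away, had 0.30 and -0.81 in Meis1-high cells, -4.90 and -1.29 in Meis1-low cells, and -1.36 and -1.23 in Meis1-negative cells. On that probe too both Meis1-high arrays lay above all others, while Meis1-low and Meis1-negative were close on slide 2. After that correction, the Hoxa3 comparison of Meis1-high with Meis1-low passed, with a difference of 2.36 and an adjusted p = 0.00576 (limma). That correction called 230 genes in all, and over the alternatives tried the adjusted p of Hoxa3 ranged from 0.00576 to 1.

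Hoxa2 and Hoxa4 lie on either side of Hoxa3. Hoxa2, which patterns the second pharyngeal arch (chromosome 6, 52112595 to 52112654 on mm9), had levels of -1.35 and -2.11 in Meis1-high cells, -3.56 and -3.88 in Meis1-low cells, and -3.87 and -4.71 in Meis1-negative cells. Neither Meis1-negative array was well above background, and both Meis1-high arrays lay above the other 4. The difference between Meis1-high and Meis1-negative was 2.57 ± 0.65 (limma, adjusted p = 0.307), 2.53 and 2.6 by slide, and 0.74 after the normexp correction (limma, adjusted p = 0.898). As a bound, from the uncorrected levels, this is at least 4.83-fold higher in Meis1-high: such bounds set the bright gate's mean against, per array, the larger of the dim signal and the lowest signal well above background. Here and below, an "at least" fold is such a bound on gate means. It takes no account of the spread between the 2 arrays, so a single slide or the normexp correction can give less. The difference between Meis1-high and Meis1-low was 1.99 ± 0.65 (limma, adjusted p = 0.293), 2.21 and 1.78 by slide, and 0.25 after the normexp correction.

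Hoxa4, a gene of neck vertebrae (chromosome 6, 52139796 to 52139855 on mm9), had levels of -0.11 and -1.37 in Meis1-high cells, -6.37 and -4.20 in Meis1-low cells, and -1.81 and -3.66 in Meis1-negative cells. It was not well above background on either Meis1-low array, and Meis1-high lay above both other gates. Meis1-high minus Meis1-low was 4.55 ± 1.0 (limma, adjusted p = 0.25), 6.27 and 2.82 by slide, or at least 11.3-fold as a bound. After the normexp correction it was 0.78 (limma, adjusted p = 0.966). Meis1-high minus Meis1-negative was 1.99 ± 1.0 (limma, adjusted p = 0.548), 0.83 after the normexp correction and 1.07 without Meis1-negative replicate 2. Meis1-low minus Meis1-negative was -2.55 ± 1.0 (limma, adjusted p = 0.608), -4.57 and -0.54 by slide. As a bound on the gate means, Meis1-negative was at least 2.85-fold higher than Meis1-low, which the slide 2 difference alone falls short of. After the normexp correction this last difference was 0.05 (limma, adjusted p = 0.988), and it was -1.47 without Meis1-low replicate 1 and -1.63 without Meis1-negative replicate 1. The other Hoxa4 probe was well above background on Meis1-high replicate 2 (-2.64) and Meis1-negative replicate 2 (-3.87) and on no other array, so that it was not tested.

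The minus-strand AK036636 probe had levels of 0.96 and -0.94 in Meis1-high cells, -5.99 and -2.90 in Meis1-low cells, and -5.11 and -3.94 in Meis1-negative cells. Both Meis1-high arrays lay above the other 4, of which only the slide 2 arrays were well above background. Meis1-high minus Meis1-low was 4.45 ± 1.15 (limma, adjusted p = 0.253), 6.95 and 1.95 by slide, and Meis1-high minus Meis1-negative 4.54 ± 1.15 (limma, adjusted p = 0.307), 6.07 and 3.0 by slide. Without Meis1-low replicate 1 the difference between Meis1-high and Meis1-low was 2.90. After the normexp correction the differences were 1.10 against Meis1-low and 1.54 against Meis1-negative (limma, adjusted p = 0.612 and 0.169). The NM_134032 probe of Hoxb2, a gene of hindbrain segments, was well above background on 1 array, Meis1-high replicate 2, at -3.17. Its other levels were -4.03 in Meis1-high replicate 1, -4.54 and -6.07 in Meis1-low cells, and -5.54 and -4.62 in Meis1-negative cells, and it was not tested.

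**Figure D2:**
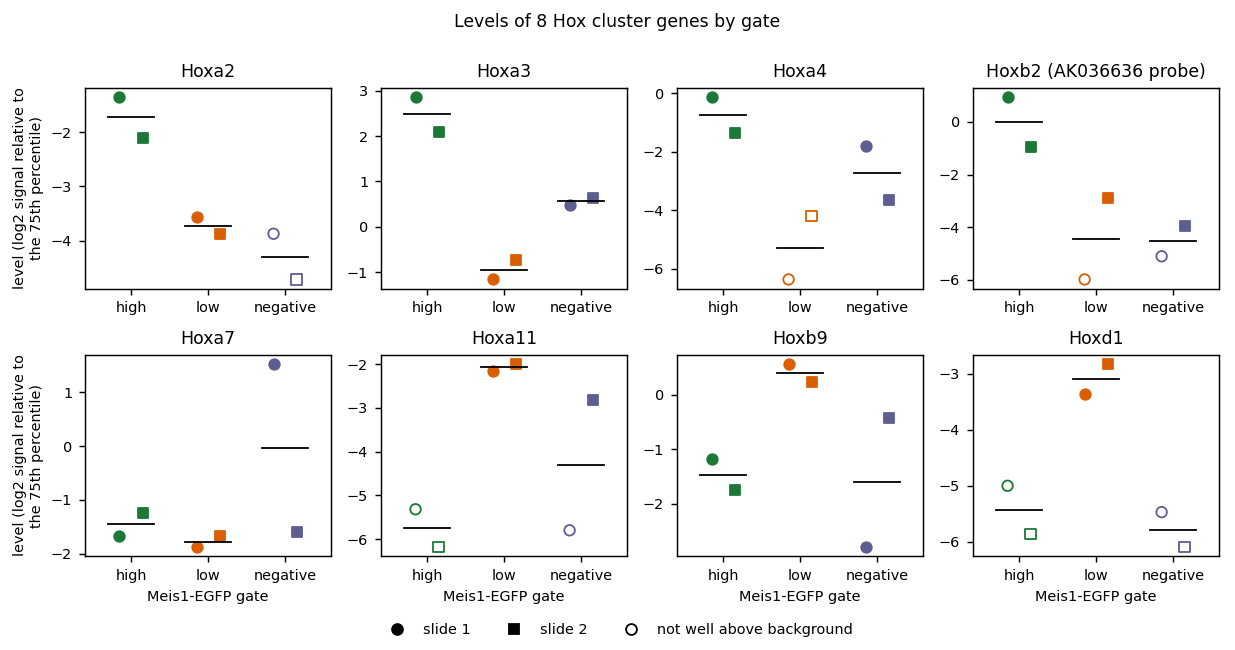
Levels of 8 Hox cluster genes by gate, in log2 units relative to the array's 75th percentile, with 1 symbol per array (circles slide 1, squares slide 2, open where not well above background) and a line at the mean of each gate. Hoxa2, Hoxa3, Hoxa4 and the AK036636 probe were highest on both Meis1-high arrays, Hoxa11, Hoxb9 and Hoxd1 on both Meis1-low arrays, and Hoxa7 reached 1.52 on 1 Meis1-negative array.

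Promoters of the RefSeq table for GRCm38.p6 were searched because the gates rest on a Meis1 reporter and Hoxa2 and Hoxa3 both had their highest levels in Meis1-high. The table held 24 promoters of 22 Hox genes. On both strands, the core of the MEIS site, TGACAG, was found in 2 of these 24 (8.3%), those of Hoxa2 and Hoxa3, against 19.2% of all 32851 promoters. Both are shown 5′ to 3′ on the strand of the gene with the core in capitals, which in Hoxa3 stands in the reverse complement at position -13 from the transcript start, and in Hoxa2 at position -44. The Hoxa3 promoter lies at chr6:52213018-52213317 and that of Hoxa2 at chr6:52164782-52165081, both on the minus strand. This Hoxa3 promoter lies near that of Hoxa7 (chr6:52218524-52218823). On mm9, the probes of Hoxa4, Hoxa5 and Hoxa6 lie between those of Hoxa3 and Hoxa7. The promoter thus belongs to a start far upstream of the measured Hoxa3 probes. Whether they read a transcript from that start was not tested.
Hoxa3: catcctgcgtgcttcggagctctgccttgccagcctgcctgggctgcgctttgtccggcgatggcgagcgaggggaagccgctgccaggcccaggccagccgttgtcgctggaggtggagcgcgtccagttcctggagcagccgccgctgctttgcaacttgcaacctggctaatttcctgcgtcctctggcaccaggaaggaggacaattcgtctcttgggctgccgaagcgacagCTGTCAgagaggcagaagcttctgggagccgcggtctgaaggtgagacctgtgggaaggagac
Hoxa2: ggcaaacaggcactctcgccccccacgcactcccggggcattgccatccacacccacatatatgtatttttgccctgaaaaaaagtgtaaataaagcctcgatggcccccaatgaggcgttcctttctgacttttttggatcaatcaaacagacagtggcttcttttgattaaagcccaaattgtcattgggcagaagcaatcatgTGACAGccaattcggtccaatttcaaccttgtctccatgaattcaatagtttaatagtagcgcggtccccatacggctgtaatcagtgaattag
No other Hox promoter in the table held these letters, and those of Hoxa4 and Hoxb2 were not analysed here. The pattern TGATNNAT, bound by Pbx and Hox proteins together, was in 4 of the 24 Hox promoters (16.7%), those of Hoxa2, Hoxb1, Hoxb8 and Hoxd11, against 8.8% of all. A match to these letters is a description of the sequence and not of binding.

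The remaining anterior genes went other ways. Hoxd1, a gene of sensory neurons in the mouse (chromosome 2, 74603000 to 74603059 on mm9), was well above background in Meis1-low alone. Its levels were -5.0 and -5.86 in Meis1-high cells, -3.36 and -2.83 in Meis1-low cells, and -5.47 and -6.09 in Meis1-negative cells. Meis1-low minus Meis1-negative was 2.69 ± 0.65 (limma, adjusted p = 0.452), 2.11 and 3.27 by slide, at least 1.87-fold as a bound. Meis1-high minus Meis1-low was -2.33 ± 0.65 (limma, adjusted p = 0.258), and Meis1-low was at least 1.44-fold higher. After the normexp correction the 2 differences were 0.75 and -0.46 (limma, adjusted p = 0.869 and 1). Hoxb3, the paralogue of Hoxa3, had -5.53 and -2.22 in Meis1-high cells, -3.60 and -3.90 in Meis1-low cells, and -6.00 and -5.14 in Meis1-negative cells on its tested probe. Its Meis1-high arrays lay on either side of both Meis1-low arrays.

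Among the central genes of groups 4 to 8, Hoxc4 and Hoxc5, neighbours in the cluster, were well above background on all arrays. Levels of Hoxc4 were -1.40 and -1.17 in Meis1-high cells, -2.91 and -1.96 in Meis1-low cells, and -2.73 and -1.69 in Meis1-negative cells. Those of Hoxc5 were -1.91 and -1.64 in Meis1-high cells, -3.45 and -2.43 in Meis1-low cells, and -3.27 and -1.80 in Meis1-negative cells. Both were highest in Meis1-high on each slide, by 1.15 ± 0.68 and 1.16 ± 0.74 over Meis1-low (limma, adjusted p = 0.53 and 0.565). For both genes Meis1-low lay below Meis1-negative on each slide.

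Hoxa7, a gene of the trunk, had -1.66 and -1.24 in Meis1-high cells, -1.87 and -1.67 in Meis1-low cells, and 1.52 and -1.59 in Meis1-negative cells. A single array, Meis1-negative replicate 1, stood above the other 5. Meis1-low minus Meis1-negative was -1.73 ± 1.0 (limma, adjusted p = 0.625), and without Meis1-negative replicate 2 it was -3.29 and passed the test (adjusted p = 0.0419). Without Meis1-negative replicate 1 it was -0.18 (limma, adjusted p = 0.999), and after the normexp correction -0.70. Meis1-negative replicate 1 also had the highest level of thymocyte and T cell genes: the summed linear level of that list, 19 of whose 21 genes were tested, was 10.3 and 11.1 in Meis1-high cells, 14.9 and 11.6 in Meis1-low cells, and 1220 and 28.7 in Meis1-negative cells. The part of these cells in the Hoxa7 level was not tested. In bulk samples, fewer cells of a type and less RNA per cell cannot be told apart.

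Hoxc8, a gene of thoracic vertebrae, had -5.20 and -5.15 in Meis1-high cells, -2.52 and -3.69 in Meis1-low cells, and -5.39 and -3.09 in Meis1-negative cells. It was not well above background in Meis1-high, and was at least 1.43-fold higher in Meis1-low (difference -2.07 ± 0.89 for Meis1-high minus Meis1-low, limma, adjusted p = 0.388). Hoxb7 had -5.45 and -2.64 in Meis1-high cells, -3.81 and -2.00 in Meis1-low cells, and -5.90 and -2.16 in Meis1-negative cells. Within every gate its slide 2 array was the higher one, and the gates overlapped. Hoxc6 had -3.66 and -5.54 in Meis1-high cells, -3.87 and -3.06 in Meis1-low cells, and -5.82 and -3.55 in Meis1-negative cells, and only Meis1-low showed it well above background on both arrays.

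The 2 probes of Hoxb6, 2282 bases apart, gave different patterns. The probe with accession X56459 had 4.44 and 4.78 in Meis1-high cells, 3.32 and 4.43 in Meis1-low cells, and 2.86 and 4.67 in Meis1-negative cells. Its difference between Meis1-high and Meis1-low, 0.73 ± 0.80, was within the spread of the arrays (limma, adjusted p = 0.744). The probe on the RefSeq transcript NM_008269 had -5.47 and -4.15 in Meis1-high cells, -1.91 and -2.66 in Meis1-low cells, and -5.92 and -3.96 in Meis1-negative cells. It was not well above background in Meis1-high and at least 2.53-fold higher in Meis1-low. The gate in which Hoxb6 was highest thus depends on the probe.

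The posterior genes are those of groups 9 to 13, and all 7 that were tested had a higher mean in Meis1-low than in Meis1-negative, as 52% of all genes had. On slide 2 this held for 5 of the 7, and without Meis1-negative replicate 1 for 6. All 7 passed the filter in Meis1-low and 2 in Meis1-negative. Most thus entered the test through the gate in which they were high, and the count describes these 7 genes only. Hoxa11, a gene of forelimb and uterus (chromosome 6, 52192107 to 52192166 on mm9), had -5.32 and -6.18 in Meis1-high cells, -2.15 and -2.00 in Meis1-low cells, and -5.80 and -2.82 in Meis1-negative cells. Both Meis1-low arrays lay above the other 4, and neither Meis1-high array was well above background. Meis1-high minus Meis1-low was -3.68 ± 0.99 (limma, adjusted p = 0.253), -3.17 and -4.18 by slide, at least 2.92-fold higher in Meis1-low, and -0.71 after the normexp correction (limma, adjusted p = 1). Meis1-low minus Meis1-negative was 2.24 ± 0.99 (limma, adjusted p = 0.608), 3.65 and 0.82 by slide. Without Meis1-negative replicate 2 it was 3.73 and passed the test (adjusted p = 0.0395). Without Meis1-negative replicate 1 it was 0.75 (limma, adjusted p = 0.999) and after the normexp correction 0.68, and over the alternatives tried its adjusted p ranged from 0.0395 to 1.

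Hoxb9, a gene of ribs and mammary gland, had -1.18 and -1.75 in Meis1-high cells, 0.56 and 0.24 in Meis1-low cells, and -2.79 and -0.42 in Meis1-negative cells. Both Meis1-low arrays lay above all others, as they did on the other Hoxb9 probe, with -5.46 and -2.24 in Meis1-high cells, -0.51 and -1.27 in Meis1-low cells, and -4.07 and -1.81 in Meis1-negative cells. The difference was -1.87 ± 0.86 for Meis1-high minus Meis1-low (limma, adjusted p = 0.42), -1.74 and -1.99 by slide, and -1.02 after the normexp correction. For Meis1-low minus Meis1-negative it was 2.01 ± 0.86 (limma, adjusted p = 0.608), 3.35 and 0.66 by slide, and without Meis1-negative replicate 2 it was 3.19 and passed the test (adjusted p = 0.0453). Without Meis1-negative replicate 1 it was 0.82 (limma, adjusted p = 0.999), and after the normexp correction 1.01.

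Hoxc9 had -0.64 and -2.29 in Meis1-high cells, -0.86 and -0.74 in Meis1-low cells, and -3.78 and -1.33 in Meis1-negative cells. Hoxc10, a gene of the hindlimb level of the spinal cord, had -3.02 and -1.38 in Meis1-high cells, -1.32 and -1.08 in Meis1-low cells, and -2.91 and -2.20 in Meis1-negative cells. For both genes the Meis1-low arrays lay above the Meis1-negative arrays, and for Hoxc10 also above the Meis1-high arrays. Hoxb13, a gene of tail and prostate, had -2.48 and -3.50 in Meis1-high cells, -3.41 and -2.98 in Meis1-low cells, and -5.58 and -3.87 in Meis1-negative cells. Hoxa13, which shapes the digits and the urogenital tract, had -0.56 and -0.87 in Meis1-high cells, 0.36 and -2.17 in Meis1-low cells, and -3.39 and -1.65 in Meis1-negative cells on its tested probe. Hoxb13 was lowest in Meis1-negative on both slides, whereas the Meis1-low arrays of Hoxa13 lay on either side of both Meis1-high arrays.

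**Figure D3:**
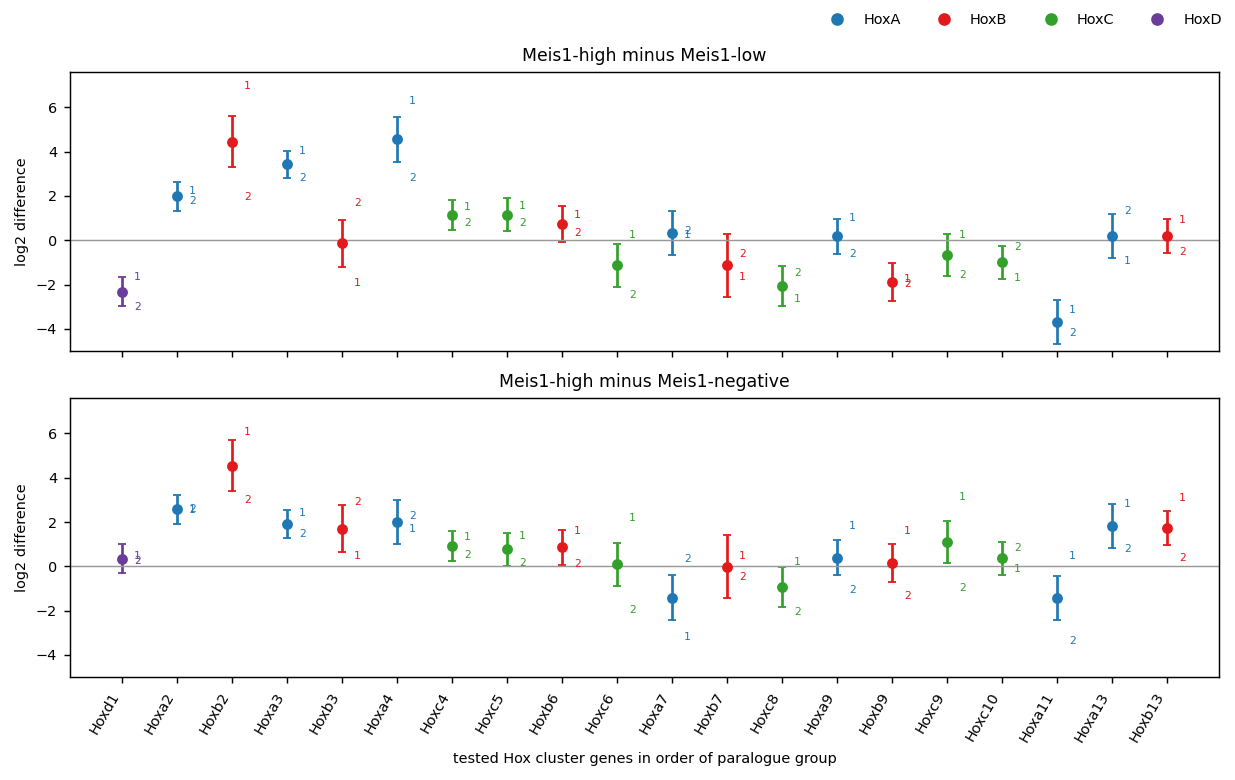
Log2 differences of the 20 tested Hox cluster genes in order of paralogue group, for Meis1-high minus Meis1-low and Meis1-high minus Meis1-negative, with the fitted standard error as bars, colours for the clusters, and small digits for the differences on slide 1 and slide 2. The highest points are Hoxa4 (4.55) and Hoxb2, plotted from its AK036636 probe (4.45 and 4.54), and the lowest is Hoxa11 (-3.68) against Meis1-low.

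The moderated F test over the 3 gates called no gene either (0%). Before adjustment, 4 Hox genes were higher in Meis1-high than in Meis1-low at a p under 0.05, Hoxa2, Hoxa3, Hoxa4 and Hoxb2 by its AK036636 probe, against 4.69% of all genes. Hoxa11 and Hoxd1 were lower, against 8.25% of all genes. Against Meis1-negative, 3 were higher in Meis1-high, Hoxa2, Hoxa3 and Hoxb2 by the same probe (5.71% of all genes), and 0 were lower (4.83%). Between Meis1-low and Meis1-negative, Hoxd1 was higher (5.02%) and Hoxa3 and Hoxa4 were lower (3.06%). The F test before adjustment took 6 Hox genes, the same names as in the first of these comparisons, against 11.4% of all genes. The comparisons share arrays, so these counts are not independent of each other.

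Both arrays of Meis1-high lay above both of Meis1-low for 8 of the 20 genes, against 22.7% of all genes, and below them for 5, against 31%. They lay above both of Meis1-negative for 7 of the 20 (19.3% of all genes) and below them for 0 (19.9%). Both arrays of Meis1-low lay above both of Meis1-negative for 7 (23.4%) and below them for 3 (15.8%). By direction alone, 11 of the 20 genes were higher in Meis1-high than in Meis1-low, against 44.7% of all genes, and 9 were lower, against 55.3%. In Meis1-high, 16 were higher than in Meis1-negative (46.4%) and 4 lower (53.6%). In Meis1-low, 15 were higher than in Meis1-negative (52%) and 5 lower (48%). The thymic epithelial genes described below went the same way against Meis1-negative. Of these 17 genes, 15 were higher in Meis1-high (median 0.73) and 16 in Meis1-low (median 1.12). All 19 tested thymocyte and T cell genes were lower in both gates than in Meis1-negative.

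The median log2 difference of the 20 genes was 0.19 for Meis1-high minus Meis1-low (all genes -0.15), 0.80 for Meis1-high minus Meis1-negative (all genes -0.10) and 1.13 for Meis1-low minus Meis1-negative (all genes 0.05). On slide 1 these medians were 0.22, 1.59 and 1.77, and on slide 2 they were 0.02, 0.29 and 0.33. Without Meis1-negative replicate 1 the last 2 comparisons had medians of 0.08 and 0.03, and without Meis1-negative replicate 2 of 1.47 and 1.98. The same direction on both slides was seen for 14, 11 and 15 of the 20 genes in the 3 comparisons. Replicates of Meis1-high differed by a median of 0.86 over the Hox genes and 0.67 over all genes, those of Meis1-low by 0.48 and 0.58, and those of Meis1-negative by 1.73 and 1.08. Among the 20 genes, 2 differed by over 4-fold between the Meis1-high replicates, 3 between those of Meis1-low and 7 between those of Meis1-negative.

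Grouped by position, a grouping chosen after the values were seen, the 5 tested anterior genes had a median difference of 1.99 for Meis1-high minus Meis1-low, the 8 central genes 0.53 and the 7 posterior genes -0.67. The anterior values were 4.45 for Hoxb2 by its minus-strand AK036636 probe, 3.43 for Hoxa3, 1.99 for Hoxa2, -0.13 for Hoxb3 and -2.33 for Hoxd1. The anterior medians thus depend on counting that probe as Hoxb2. For Meis1-high minus Meis1-negative the medians were 1.92, 0.42 and 0.38. For Meis1-low minus Meis1-negative they were 0.57, -0.06 and 1.62, with 7 of 7 posterior genes higher in Meis1-low, against 52% of all genes. All 7 had passed the filter in Meis1-low. The posterior median for Meis1-low minus Meis1-negative was 2.92 on slide 1 and 0.66 on slide 2, and without Meis1-negative replicate 1 it was 0.75. The posterior median for Meis1-high minus Meis1-negative was 1.83 on slide 1 and -0.96 on slide 2. By cluster, 6 of 7 HoxA genes, 3 of 6 HoxB genes, 2 of 6 HoxC genes and 0 of 1 HoxD genes were higher in Meis1-high than in Meis1-low.

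The 18 untested genes with probes included 7 that were well above background on 1 or more arrays. For Hoxd9, 1 probe was well above background on the 3 replicate 1 arrays alone, at -0.33 in Meis1-high cells, -2.03 in Meis1-low cells and -2.08 in Meis1-negative cells, and the other probe on Meis1-high replicate 2 (-2.89), Meis1-low replicate 1 (-2.02) and Meis1-negative replicate 2 (-2.02). Hoxd13, which shapes the digits, was well above background on the 3 replicate 2 arrays alone, at -1.96 in Meis1-high cells, -1.49 in Meis1-low cells and -1.58 in Meis1-negative cells, and its other probe on none. No single probe of either gene was well above background on both arrays of a gate. Hoxa6 reached -1.05 on Meis1-high replicate 2, Hoxc13 reached -1.21 on Meis1-low replicate 2 and Hoxb8 reached -2.57 on Meis1-negative replicate 2, each on that array alone. Hoxa5 was well above background on Meis1-high replicate 2 (-3.31) and Meis1-negative replicate 1 (-2.82), and Hoxd4 on Meis1-low replicate 2 (-2.59) and Meis1-negative replicate 2 (-3.09).

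**Figure D4:**
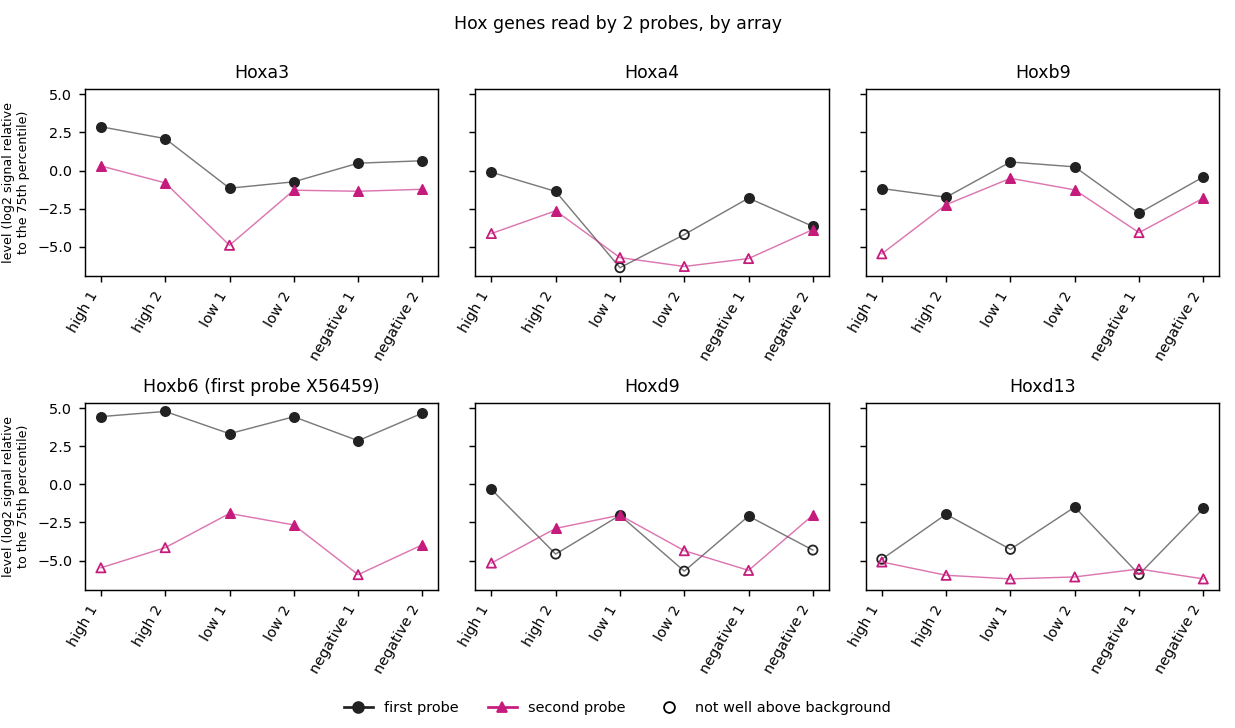
Levels of 6 Hox cluster genes that 2 probes read, by array, in log2 units relative to the array's 75th percentile, with open symbols for signals not well above background. Both probes of Hoxa3 are highest on the Meis1-high arrays and both of Hoxb9 on the Meis1-low arrays, while the probes of Hoxb6, Hoxd9 and Hoxd13 differ in pattern.

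Among the partners of Hox proteins, Meis1 itself had 0.24 and 0.12 in Meis1-high cells, -2.35 and -1.61 in Meis1-low cells, and -3.20 and -0.99 in Meis1-negative cells, so that Meis1-high lay above both other gates, which overlapped. Its differences were 2.16 ± 0.84 for Meis1-high minus Meis1-low and 2.28 ± 0.84 for Meis1-high minus Meis1-negative, and neither passed the test (limma, adjusted p = 0.349 and 0.423). Of the 8 tested TALE genes, 7 were higher in Meis1-high than in Meis1-low, with a median difference of 0.74, and 7 were higher than in Meis1-negative, with a median of 1.69. Between Meis1-low and Meis1-negative, 5 were higher and 3 lower, with a median of 0.57. Pbx4 differed by 1.52 ± 0.81 between Meis1-high and Meis1-low, Pknox2 by 1.91 ± 0.68 between Meis1-high and Meis1-negative, and Meis2 and Pbx3 by 1.42 ± 0.74 and 1.48 ± 0.90 between Meis1-low and Meis1-negative. None of these 4 passed the test (limma, adjusted p = 0.412 to 0.635). By slide, these differences were 2.91 and 0.12 for Pbx4, 2.36 and 1.45 for Pknox2, 2.49 and 0.34 for Meis2, and 1.85 and 1.10 for Pbx3.

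Polycomb proteins keep Hox genes silent, and trithorax proteins and H3K27 demethylases keep them active. Of 21 tested Polycomb genes, 9 were higher in Meis1-high than in Meis1-low (median -0.10), 7 were higher than in Meis1-negative (median -0.67), and 6 were higher in Meis1-low than in Meis1-negative (median -0.47). Pcgf2, a subunit of Polycomb repressive complex 1, differed by 2.21 ± 0.76 and 2.92 ± 0.76 for Meis1-high minus Meis1-low and minus Meis1-negative (limma, adjusted p = 0.306 and 0.321). Ezh2, the H3K27 methyltransferase, differed by -2.18 ± 0.85 for Meis1-high minus Meis1-negative (adjusted p = 0.441), Phc3 by -1.61 ± 0.63 for Meis1-high minus Meis1-low, and Mtf2 and Suz12 by -2.44 ± 1.18 and -0.99 ± 0.74 for Meis1-low minus Meis1-negative. Of 11 trithorax and demethylase genes, 6 were higher in Meis1-high than in Meis1-low (median 0.24), 2 were higher than in Meis1-negative (median -0.49), and 1 was higher in Meis1-low than in Meis1-negative (median -0.62). Kmt2b and Dpy30 differed by 1.15 ± 0.63 and -0.93 ± 0.61 for Meis1-high minus Meis1-low, and Kmt2a and Men1 by -1.41 ± 0.90 and -1.18 ± 0.72 for Meis1-high minus Meis1-negative. For Meis1-low minus Meis1-negative, Kmt2a and Men1 differed by -1.81 ± 0.90 and -1.42 ± 0.72. The named differences from Meis1-negative were larger on slide 1, which holds the array with the highest thymocyte and T cell sum. By slide, Kmt2a was -3.02 and 0.19 for Meis1-high and -3.35 and -0.28 for Meis1-low. Men1 was -1.79 and -0.57, and -2.55 and -0.29. Ezh2 was -3.67 and -0.69 for Meis1-high, and Mtf2 -4.66 and -0.23 for Meis1-low. No gene of these lists passed the test.

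Retinoic acid turns on anterior Hox genes in the embryo. Of 12 tested genes for its receptors and enzymes, 5 were higher in Meis1-high than in Meis1-low (median -0.17), 8 were higher than in Meis1-negative (median 0.54), and 10 were higher in Meis1-low than in Meis1-negative (median 1.18). Aldh1a2, which makes retinoic acid, and Crabp1, which binds it, differed by -3.63 ± 1.0 and -2.98 ± 1.01 for Meis1-high minus Meis1-low (limma, adjusted p = 0.256 and 0.301). Aldh1a2 had -5.52 and -3.99 in Meis1-high cells, the first below that array's lowest signal well above background (-3.21). The enzyme Cyp26b1 and the receptor Rxra follow. Cyp26b1, which breaks retinoic acid down, differed by 1.75 ± 0.74 and 1.76 ± 0.74 for Meis1-high and Meis1-low minus Meis1-negative. Its receptor Rxra differed by 1.40 ± 0.74 for Meis1-high minus Meis1-negative, and Cyp26a1 by 1.99 ± 0.88 for Meis1-low minus Meis1-negative.

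Of 10 tested genes of the pouch network that Hoxa3 belongs to, 5 were higher in Meis1-high than in Meis1-low (median 0.28), 8 were higher than in Meis1-negative (median 1.20), and 8 were higher in Meis1-low than in Meis1-negative (median 0.86). Eya1 differed by 1.31 ± 0.73 and 1.98 ± 0.73 for Meis1-high minus Meis1-low and minus Meis1-negative, and Pax1 by 1.91 ± 0.70 for Meis1-high minus Meis1-negative (limma, adjusted p = 0.423 to 0.501). Gcm2, the regulator of parathyroid fate, differed by 1.53 ± 0.69 for Meis1-high minus Meis1-low. Of 7 tested Evx and ParaHox genes, relatives of the Hox genes, 2 were higher in Meis1-high than in Meis1-low (median -0.81), 4 were higher than in Meis1-negative (median 0.36), and 4 were higher in Meis1-low than in Meis1-negative (median 0.94). Cdx4, which activates Hox genes in the embryo, differed by -3.18 ± 0.66 and -3.56 ± 0.66 for Meis1-high minus Meis1-low and minus Meis1-negative (limma, adjusted p = 0.25 and 0.174). Pdx1 differed by -2.33 ± 0.76 and -1.24 ± 0.76 in the same comparisons and by 1.09 ± 0.76 for Meis1-low minus Meis1-negative, and Gsx2 by 1.17 ± 0.81 there. Meis1-high levels were -5.35 and -6.19 for Cdx4, and -5.29 and -4.37 for Pdx1. The lowest signals well above background on those arrays were -3.21 and -4.03, so the sizes of these 2 genes' differences from Meis1-high rest on dim signals.

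Markers of other cells were read beside these values, since mesenchyme and blood progenitors also express Hox genes. Thymic epithelial genes, 17 of 17 tested, had summed linear levels of 809 and 898 in Meis1-high cells, 906 and 657 in Meis1-low cells, and 196 and 637 in Meis1-negative cells. Fibroblast and pericyte genes, 11 of 14 tested, had 92.7 and 61.8 in Meis1-high cells, 54.7 and 39.8 in Meis1-low cells, and 72.7 and 46.0 in Meis1-negative cells. Single genes make up most of some of these sums. Rgs5 had log2 levels of 6.04 and 5.67 in Meis1-high cells. Thy1 had 5.86 on Meis1-negative replicate 1, the array with the highest thymocyte and T cell sum, and 2.55 on Meis1-negative replicate 2. Of these 11 genes, 7 were higher in Meis1-high than in Meis1-low, as Hoxa2, Hoxa3 and Hoxa4 were, with Prrx1 at 3.60 ± 0.85 and Col1a1 at -2.06 ± 0.66, and Twist1 was well above background on no array. The part of such cells in the Hox levels was not tested. Genes of blood progenitors, 11 of 12 tested, summed to 5.03 and 3.97 in Meis1-high cells, 17.4 and 10.3 in Meis1-low cells, and 5.59 and 10.1 in Meis1-negative cells. Mpo had log2 levels of 3.09 and 2.45 in Meis1-low cells. Of the blood progenitor genes, 8 were lower in Meis1-high than in Meis1-low, with Gata2 at -3.31 ± 1.09. The other 3 were higher, among them Mef2c (2.46 ± 0.77) and Lmo2 (3.64 ± 1.26). Meis1-low levels were -5.01 and -6.22 for Mef2c, and -5.64 and -3.80 for Lmo2. Pan-leukocyte genes, 10 of 10 tested, summed to 21.3 and 18.5 in Meis1-high cells, 46.7 and 44.6 in Meis1-low cells, and 110 and 64.1 in Meis1-negative cells.

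Dendritic cell and macrophage genes, 9 of 13 tested, summed to 14.3 and 12.9 in Meis1-high cells, 43.2 and 41.9 in Meis1-low cells, and 7.03 and 35.1 in Meis1-negative cells. The sums were thus highest on the Meis1-low arrays, as Hoxa11, Hoxb9 and Hoxd1 were. Lyz2 makes up most of these sums, with log2 levels of 3.01 and 2.95, 4.82 and 4.76, and 2.22 and 4.52 in the same order. Of the 9 genes, 8 were lower in Meis1-high than in Meis1-low, and 1, Xcr1, was higher. Erythroid genes, also highest on the Meis1-low arrays, summed to 2.63 and 1.82 in Meis1-high cells, 8.17 and 7.33 in Meis1-low cells, and 1.87 and 5.09 in Meis1-negative cells. Aire, of the thymic epithelial list, was also highest on both Meis1-low arrays. Its log2 levels were 1.19 and 2.69 in Meis1-high cells, 3.87 and 4.65 in Meis1-low cells, and 1.22 and 3.84 in Meis1-negative cells. Of the 17 genes of that list, 10 were lower in Meis1-high than in Meis1-low and 7 higher. B cell genes summed to 2.62 and 2.18 in Meis1-high cells, 6.46 and 5.62 in Meis1-low cells, and 3.34 and 8.30 in Meis1-negative cells. Endothelial genes, 5 of 9 tested, summed to 0.743 and 0.890 in Meis1-high cells, 1.48 and 0.936 in Meis1-low cells, and 1.08 and 1.10 in Meis1-negative cells. Parathyroid genes, 4 of 4 tested, summed to 59.8 and 12 in Meis1-high cells, 13.5 and 3.63 in Meis1-low cells, and 82.4 and 52.6 in Meis1-negative cells. Pth makes up most of these sums, with log2 levels of 5.86 and 3.40, 3.42 and 1.17, and 6.35 and 5.69 in the same order. Gcm2 had -0.88 and -1.50, -3.13 and -2.30, and -2.98 and -1.90. In each comparison, 2 of the 4 genes were higher and 2 lower. The part of any of these cells, or of Aire, in the Hox levels was not tested.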

How the data were processed

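Expression was measured in 3 gates of sorted thymic epithelial cells, 2 pools each, from 10 ng of RNA each, amplified before Cy3 labelling, per the labels. Per the file headers, the deposited scanner files hold an intensity from Agilent Feature Extraction 9.5.3.1 after background subtraction and detrending, with probe positions on mm9. The value table the authors deposited is on a log2 scale and was used as an alternative. Control and outlier spots were left out, spots of a probe were averaged as log2 signals, and each array's 75th percentile was subtracted. The well-above-background mark, per the file headers, rests on the background's SD. The tested probe with the highest mean stood for a gene. All 6 arrays were fitted in limma 3.58.1 (R 4.3.3) with 1 mean per gate (residual degrees of freedom 3, prior 4.33) and Benjamini-Hochberg adjustment over 18221 genes, with a threshold of 0.05. The number of arrays limits the precision: 2 arrays against 2 allow no permutation test that reaches this threshold.

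Every Hox gene was accounted for, and test values are named for Hoxa3, for the 3 largest differences per comparison, for genes described beside them, and for the 2 members with the smallest p of each further list, of which some are not reported here. The members, lists and rules were chosen with earlier results of these data known. Slide, scan and replicate number are 1 block. The labels do not say that same-numbered pools are paired, and replicate deviations correlated at 0.209 (Meis1-high with Meis1-low), 0.128 (Meis1-high with Meis1-negative) and 0.125 (Meis1-low with Meis1-negative). The fit was tested on simulated data. Alternatives covered background correction, scaling, filters, a floor, the block, probe choice, the authors' values, robust fitting with a variance trend, thresholds and each array left out. Figures were drawn with Python 3.11.15, pandas 2.3.3 and matplotlib 3.10.9.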

Additional observations from a re-analysis of the deposited data

How the results depend on the processing

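Normexp background correction called 1 Hox gene between Meis1-high and Meis1-low, Hoxa3 (difference 2.36, limma, adjusted p = 0.00576, 230 genes called in all), and 1 in the F test (457 in all). It moved the median Hox difference between these gates to -0.08 and that of Hoxa4 between Meis1-low and Meis1-negative to 0.05 (adjusted p = 0.988, against -2.55). The same median was 0.03 with the mean of a gene's probes, and -0.13 with the 17 members tested when only RefSeq probes were kept, a choice made after seeing the data. Leaving out 1 array each time, it ranged from 0.03 (without Meis1-low replicate 1) to 0.25, the median for Meis1-high minus Meis1-negative from 0.08 to 1.47, and that for Meis1-low minus Meis1-negative from 0.03 to 1.98. These fits called 0 Hox genes in the first 2 comparisons, 0 to 3 between Meis1-low and Meis1-negative and 0 to 2 in the F test. The calls came without Meis1-negative replicate 2, where the lone array of that gate is assumed to vary like the others: Hoxa11 (3.73, adjusted p = 0.0395), Hoxa7 (-3.29, 0.0419) and Hoxb9 (3.19, 0.0453) among 1269 genes, and Hoxa11 and Hoxa3 in the F test (0.0475 and 0.0492) among 971. The causes of these shifts were not tested. With the replicate number as a block, 0 Hox genes were called in any comparison, and the block changed no call. Of the other values, 137 counts and medians stayed near theirs and 346 gene differences kept their direction and their side of the threshold, though not always their size. Of the 17 gene differences followed, normexp made 14 smaller by over 1.5 times: between Meis1-high and Meis1-low, Hoxa4 was 0.78 (against 4.55), Hoxb2 1.10 (4.45), Hoxa11 -0.71 (-3.68) and Hoxa2 0.25 (1.99). Raising dim signals to a floor did so for 5, with Hoxa11 at -1.55 and Hoxd1 at -0.53 in that comparison. Without Meis1-negative replicate 1, 4 were smaller, all for Meis1-low minus Meis1-negative: Hoxa4 (-1.63), Hoxa11 (0.75), Hoxa7 (-0.18) and Hoxb9 (0.82). Precision is limited by 2 arrays per gate and by probes not well above background.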

Other observations

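Probes of other genes in and beside the clusters were read for comparison. A plus-strand probe of the transcript ENSMUST00000114435 (chromosome 6, 52119107 to 52119166 on mm9) lies beside the Hoxa3 probe of the report, on the strand opposite to the HoxA genes. Its levels were 0.85 and 0.40 in Meis1-high cells, -2.53 and -2.21 in Meis1-low cells, and -1.19 and -1.81 in Meis1-negative cells, so that both Meis1-high arrays were highest and both Meis1-low arrays lowest, as for Hoxa3. Meis1-high minus Meis1-low was 3.0 ± 0.61 and Meis1-high minus Meis1-negative 2.13 ± 0.61 (limma, adjusted p = 0.25 and 0.346). The probe of Hoxd3os1, on the strand opposite to the HoxD genes, was well above background on no array.

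Among the nearest measured genes beside the clusters, Evx1, next to the posterior end of HoxA, had -2.79 and -3.60 in Meis1-high cells, -4.25 and -3.52 in Meis1-low cells, and -3.39 and -3.76 in Meis1-negative cells. Evx2, next to the posterior end of HoxD, had -2.50 and -2.94 in Meis1-high cells, -4.01 and -3.01 in Meis1-low cells, and -3.08 and -3.35 in Meis1-negative cells. The differences between Meis1-high and Meis1-low were 0.69 ± 0.65 for Evx1 and 0.79 ± 0.64 for Evx2 (limma, adjusted p = 0.705 and 0.653). Beyond the anterior end of HoxA, the transcript AK043556 had -1.12 and -1.15 in Meis1-high cells, -6.26 and -2.66 in Meis1-low cells, and -5.60 and -2.68 in Meis1-negative cells. Beside HoxB, Gm11531 had 4.75 and 4.45 in Meis1-high cells, 4.45 and 4.21 in Meis1-low cells, and 4.87 and 4.74 in Meis1-negative cells, and Ttll6 had -3.94 and -1.84 in Meis1-high cells, -2.20 and -1.95 in Meis1-low cells, and -5.59 and -2.24 in Meis1-negative cells. Gm11531 differed by -0.20 ± 0.58 for Meis1-high minus Meis1-negative (limma, adjusted p = 0.914).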
